A study of Mus musculus with 8 samples.

Results

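Guanylate-binding proteins (GBPs) and immunity-related GTPases (IRGs) are large GTPases that cells make in response to interferons, interferon-γ above all. Interferon-γ binds a receptor of the chains IFNGR1 and IFNGR2, the kinases JAK1 and JAK2 pass the signal on, and transcription factors that include IRF1 switch on the GBP and IRG genes through gamma-activated sites and interferon-stimulated response elements in their promoters. The proteins are best known for coating and breaking vacuoles that hold microbes and for aiding inflammasomes, and IRGM proteins keep the effector IRGs off the cell's own membranes. CD8+ T cells both release interferon-γ and sense it.

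The 10 genes of this group studied here were chosen by name from the deposited table of 47493 entries: *Gbp2*, *Gbp3*, *Gbp4*, *Gbp5*, *Gbp6*, *Gbp7*, *Gbp8* and *Gbp9* among the GBPs, and *Irgm1* and *Igtp* (also called Irgm3) among the IRGs. There were 11 entries under these 10 names, because *Gbp6* was listed under 2 identifiers. All 10 genes passed the level filter, a mean of 1 FPKM or more (fragments scaled by transcript length and library depth), through 1 entry each. The second *Gbp6* entry, ENSMUSG00000079362, which the annotation describes as a read-through of *Gbp10* and *Gbp6*, was at no more than 1.59e-06 FPKM in any library and was not tested.

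RNA was compared between endogenous CD8+ T cells retained for high IL-18Rα (IL-18Rα hi), the binding chain of the interleukin-18 receptor, and the cells that ran through the same column, with 1 library of each fraction from each of 4 mice. Both fractions came from female C57BL/6 mice aged 6 to 8 weeks that carried B16F10, a mouse melanoma line (200000 cells on day 0), and that had received cyclophosphamide (300 mg/kg, day 3), 2000000 Thy1.1 Pmel-1 T cells with a transgenic receptor for the melanoma antigen gp100 (day 5), human IL-2 (10000 IU daily for 3 days from day 5) and the anti-CD4 antibody GK1.5 (200 μg weekly for 3 weeks from day 10). Endogenous cells, which lack Thy1.1, were purified with beads from inguinal lymph nodes and spleen on day 25, so every mouse carried the same treatments and no untreated group was part of the comparison. Both fractions were bulk populations, and the flow-through is what the column did not retain.

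The selected receptor gene, *Il18r1*, was higher in the enriched fraction (log2 fold change 1.85, limma adjusted p = 0.000291). Estimated depth was 14300000 to 17700000 fragments per library, and 11706 to 12288 genes reached 1 FPKM. CD8 T-cell genes were detected in all libraries, but flow-through replicate 1 stood apart: the geometric mean of 8 T-cell genes (*Cd2*, *Cd3d*, *Cd3e*, *Cd3g*, *Cd5*, *Cd8a*, *Cd8b1*, *Lck*) was 144.4 FPKM there, against 228.1 to 269.5 in the other flow-through libraries and 283.4 to 301.6 in the enriched libraries. The summed level of 9 erythroid markers was 2768 FPKM in that library, against 882.4 to 1523 in the other flow-through libraries. Values without it are therefore given beside the GTPase results and the counts of related genes. Markers of other cells were also present, and none of them was at 0 in all libraries. The enriched fraction held higher levels of 7 of 9 NK-cell markers (summed level 103.6 to 221.2 FPKM against 29.1 to 75.7), of 6 of 8 dendritic-cell markers (137.1 to 197.1 against 102.8 to 139.6), of 5 of 9 myeloid markers (433.0 to 1040 against 135.3 to 475.1) and of 4 of 7 γδ T-cell markers (77.1 to 159.5 against 55.0 to 82.0). Without flow-through replicate 1 these counts were 6, 5, 3 and 3. Of all genes tested, 14.1% were called higher with that library and 14.2% without it. In a fit of all libraries paired by mouse the counts were 8, 6, 8 and 6, where 22.2% of all genes were called higher. None of 6 B-cell markers passed the test (0 also at an unadjusted p under 0.05; 1 higher and 1 lower in the paired fit), with summed levels of 27.9 to 71.6 FPKM in the enriched and 21.9 to 60.1 in the flow-through libraries, and 1 of 9 erythroid markers, *Car1*, was lower (5 of 9 in the paired fit). Of all genes tested, 13.7% were called lower, and 22.7% in the paired fit. The part of these cells in the GTPase values was not tested, and in bulk RNA fewer cells of a type and less RNA per cell cannot be told apart.

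Promoter sequence is shown first because it carries what the family is known for, an interferon response at the start site. Windows from 250 bases before to 50 after the start, from RefSeq (build GRCm38.p6), were found for 6 of the 10 genes, and *Gbp4*, *Gbp6*, *Gbp8* and *Gbp9* were not matched. They were searched on both strands for GAAANNGAA, the core of the interferon-stimulated response element (ISRE), and for TTCNNNGAA, the gamma-activated site (GAS). Capitals mark the matches, which on the printed strand can be the reverse complement. The genes shown are those with the highest fold changes (*Gbp7* and *Gbp3*), a pair that were lower once flow-through replicate 1 was left out (*Gbp2* and *Igtp*) and the one that was most level (*Irgm1*).
Gbp7, chr3:142530086-142530385, plus strand: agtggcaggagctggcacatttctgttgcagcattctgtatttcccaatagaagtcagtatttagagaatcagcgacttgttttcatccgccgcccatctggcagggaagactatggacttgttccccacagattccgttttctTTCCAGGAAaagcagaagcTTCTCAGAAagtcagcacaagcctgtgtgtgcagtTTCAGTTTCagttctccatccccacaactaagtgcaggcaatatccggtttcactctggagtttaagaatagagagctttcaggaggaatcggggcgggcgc
Gbp3, chr3:142559794-142560093, plus strand: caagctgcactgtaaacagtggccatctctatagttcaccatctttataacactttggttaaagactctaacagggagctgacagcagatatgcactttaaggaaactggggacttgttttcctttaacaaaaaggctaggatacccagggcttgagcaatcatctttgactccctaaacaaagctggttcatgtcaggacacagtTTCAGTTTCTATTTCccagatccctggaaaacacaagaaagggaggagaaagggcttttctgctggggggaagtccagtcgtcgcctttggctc
Gbp2, chr3:142620413-142620712, plus strand: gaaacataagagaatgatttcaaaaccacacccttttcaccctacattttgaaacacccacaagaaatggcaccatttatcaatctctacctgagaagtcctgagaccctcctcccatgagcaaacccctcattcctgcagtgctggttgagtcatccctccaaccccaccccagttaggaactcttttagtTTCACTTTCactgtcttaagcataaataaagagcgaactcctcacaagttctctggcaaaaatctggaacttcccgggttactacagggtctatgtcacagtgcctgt
Igtp, chr11:58199306-58199605, plus strand: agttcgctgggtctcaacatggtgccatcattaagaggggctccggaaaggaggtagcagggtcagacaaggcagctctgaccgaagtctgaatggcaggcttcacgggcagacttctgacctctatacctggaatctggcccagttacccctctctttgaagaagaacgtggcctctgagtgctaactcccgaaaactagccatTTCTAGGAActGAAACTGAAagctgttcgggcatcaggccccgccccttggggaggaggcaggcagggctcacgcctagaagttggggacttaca
Irgm1, chr11:48871371-48871670, minus strand: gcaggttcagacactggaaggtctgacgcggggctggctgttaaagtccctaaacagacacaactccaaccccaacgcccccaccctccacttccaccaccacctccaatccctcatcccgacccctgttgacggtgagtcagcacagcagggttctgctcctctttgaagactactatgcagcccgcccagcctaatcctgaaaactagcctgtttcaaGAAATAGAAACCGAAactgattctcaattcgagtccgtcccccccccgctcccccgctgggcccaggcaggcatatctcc
The ISRE core was present in at least 1 window of all 6 genes, where 8.56% of the 32851 windows of the table hold it. *Gbp7* had it at -52, *Gbp2* at -58, *Igtp* at -34, *Gbp3* at -44 and -38 (overlapping), *Irgm1* at -30 and -24 (overlapping) and *Gbp5* at -164, counted to the first base of the match. A second *Gbp3* window held neither motif. GAS letters were found in *Gbp7* (-106 and -87), *Igtp* (-45) and *Gbp5* (-245 and -52), against 8.3% of all windows, and these 3 genes held both motifs, as did 1.07% of windows. Genes with and without GAS letters thus stood on both sides of zero in the comparison that follows, and a match of letters is a description, not a bound site.

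To ask whether GBP and IRG transcripts differed between IL-18Rα hi-enriched cells and the flow-through, the FPKM of each gene was compared in the 4 mice. Of the 10 genes, 1 was higher in the enriched fraction at an adjusted p under 0.05 (*Gbp7*) and 0 were lower, by limma. Counted at an unadjusted p under 0.05 there were 2 higher and 0 lower, where 2433 and 2594 of all 12166 genes were. Across all 12166 genes tested, 14.1% were called higher and 13.7% lower, so 1 of 10 was close to the share of genes at large. The median log2 fold change of the 10 genes was -0.06, against -0.02 for all genes tested. The fit behind these values did not pair the libraries by mouse. With pairing, 2 of the 10 were called higher and 0 lower, where 22.2% and 22.7% of all genes were. The libraries of the fractions did not overlap for 1 of the 10 genes, again *Gbp7*, where 16.4% of all genes were higher and 15.9% lower without overlap.

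**Figure D1:**
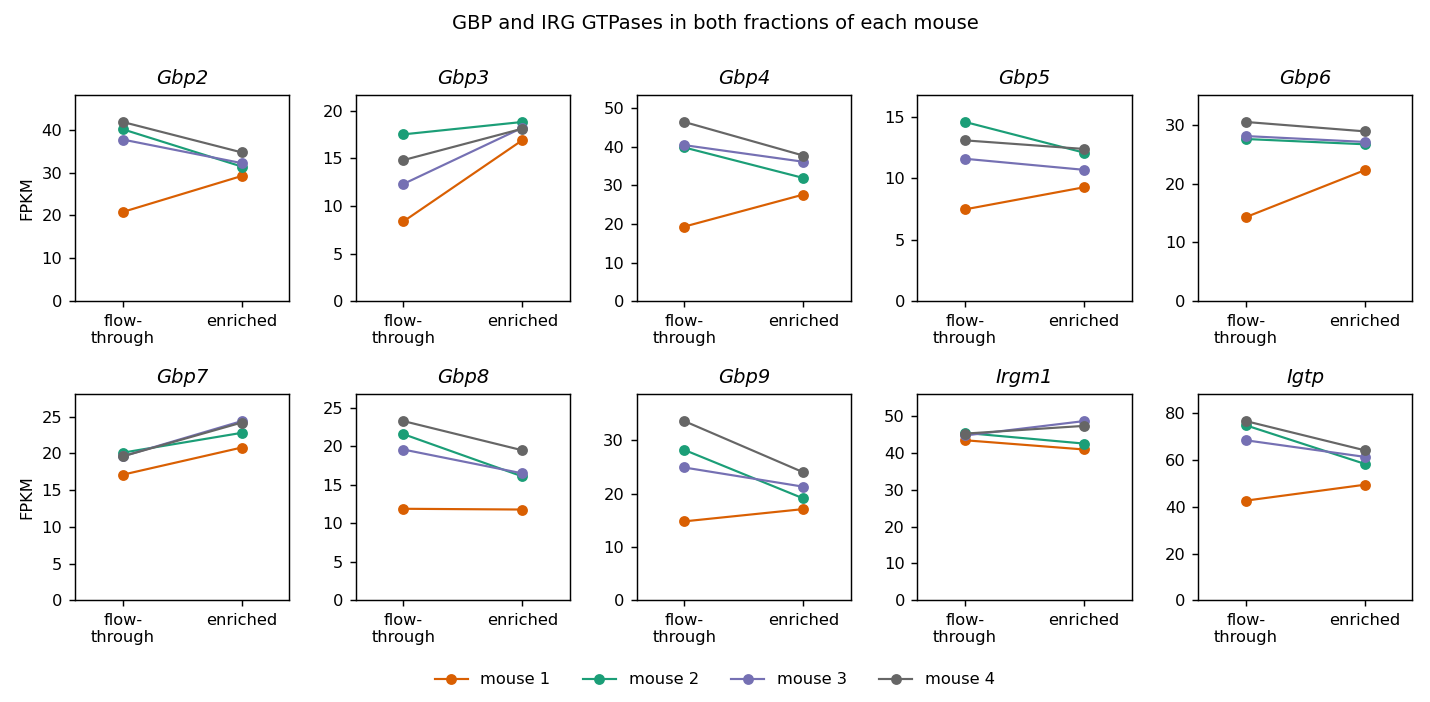
FPKM (y axis, from 0, a scale for each gene) of the 10 GTPase genes in the flow-through and the enriched library of each mouse, with 1 line per mouse. The orange line, mouse 1, starts lowest in every panel, and it slopes up in several panels where the other 3 lines slope down, such as *Gbp2* (20.8 to 29.2 FPKM in mouse 1, 41.8 to 34.7 in mouse 4).

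The GBPs of chromosome 3 are described first (mm10, plus strand, in the order *Gbp5*, *Gbp7*, *Gbp3*, *Gbp2* along 142493978 to 142638008; all protein-coding). *Gbp7* (ENSMUSG00000040253, 142530342 to 142550149) encodes a GBP that has been linked to assembly of the phagocyte oxidase. It was at 17.1, 20.1, 19.6 and 19.6 FPKM in flow-through replicates 1 to 4 and at 20.8, 22.8, 24.4 and 24.2 in the enriched replicates. Every enriched library lay above every flow-through library, and all 4 mice showed the rise. The means were 19.1 ± 1.36 and 23.1 ± 1.65 FPKM (SD, n = 4), a ratio of 1.21, and the log2 fold change was 0.26 (standard error 0.08, 95% interval 0.07 to 0.45, limma adjusted p = 0.0477). That call sat at the threshold: leaving out any 1 of 7 libraries ended it (adjusted p = 0.0525 to 0.124), and among these 8 exclusions it held only without enriched replicate 1 (adjusted p = 0.0397). It was also lost without a level filter (adjusted p = 0.0619) and without a variance trend (0.0559). With T-cell scaling, in which each library is set to its 8 T-cell genes, the difference of *Gbp7* changed sign to -0.11.

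*Gbp3* (ENSMUSG00000028268, 142560026 to 142573209) is its nearest relative among the 10, with 78.5% identical bases over the aligned coding sequence. It was at 8.37, 17.5, 12.3 and 14.8 FPKM in the 4 flow-through libraries and at 16.9, 18.8, 18.2 and 18.1 in the enriched libraries. The enriched libraries were close to one another, the flow-through libraries were spread, and enriched replicate 1 lay below flow-through replicate 2. All 4 mice were higher in the enriched fraction, by 0.10 to 0.94 on the log2 scale, and 29.2% of all genes tested were higher in every mouse. The log2 fold change was 0.46 (standard error 0.19, 95% interval 0.03 to 0.89), which did not pass the test (limma adjusted p = 0.0985). With the mouse as a replicate block, *Gbp3* passed (adjusted p = 0.0325) beside *Gbp7* (0.0174), so 2 of the 10 genes were higher and 0 lower in that paired fit. There 22.2% of all genes were called higher and 22.7% lower. At an unadjusted p under 0.05, 2 of the 10 were higher and 1 lower, beside 3181 and 3334 of all 12166 genes. Without the block the value of *Gbp3* depended on single flow-through libraries: it was 0.27 without replicate 1 (adjusted p = 0.108) and 0.60 without replicate 2 (adjusted p = 0.033). With T-cell scaling *Gbp3* was at 0.10 (adjusted p = 0.593, or 0.758 with the block as well). *Gbp3* made up 4.44 ± 0.58% of the summed FPKM of the 10 genes in flow-through libraries and 6.40 ± 0.49% in enriched libraries, with no overlap, where the share depends on the levels of all 10 genes. The share of *Igtp* went the other way, from 22.1 ± 0.60% in flow-through to 20.6 ± 0.31% in enriched libraries, also with no overlap. Shares of the remaining genes overlapped.

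*Gbp2* (ENSMUSG00000028270, 142620602 to 142638008) encodes a lipid-anchored GBP that is recruited to pathogen vacuoles. It was at 20.8, 40.1, 37.7 and 41.8 FPKM in the 4 flow-through libraries and at 29.2, 31.4, 32.2 and 34.7 in the enriched libraries. Mice 2, 3 and 4 were lower in the enriched fraction and mouse 1 was the reverse, with its flow-through library far below the others. The log2 fold change was -0.09 (standard error 0.20, 95% interval -0.56 to 0.38, limma adjusted p = 0.768). Without flow-through replicate 1 it was -0.32 and passed (adjusted p = 0.0206).

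*Gbp5* (ENSMUSG00000105504, 142493978 to 142522344), whose protein has been tied to NLRP3 inflammasome assembly, was the lowest of the 10 in mean level in both fractions. It was at 7.48, 14.6, 11.6 and 13.1 FPKM in the 4 flow-through libraries and at 9.28, 12.1, 10.7 and 12.4 in the enriched libraries. The fractions overlapped throughout, with a log2 fold change of -0.04 (95% interval -0.47 to 0.39, limma adjusted p = 0.883). *Gbp5* was at -0.23 without flow-through replicate 1 (adjusted p = 0.197).

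The GBPs of chromosome 5 (mm10, minus strand, in the order *Gbp8*, *Gbp9*, *Gbp4*, *Gbp6* along 105014150 to 105293698) form a set of close copies. Their coding sequences shared 90.2% to 92.9% of aligned bases with one another, the annotated loci of *Gbp8*, *Gbp9* and *Gbp4* overlap on the same strand, and 76.5% of the 150-base windows of the *Gbp6* transcript also occur in the read-through gene or in *Gbp10*. How their fragments were divided among the copies was left to the authors' estimation, so single values here are uncertain. For comparison, 8.93% of the windows of *Gbp7* were shared, with a pseudogene, and at most 0.854% of those of any of the other 8 genes.

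*Gbp9* (ENSMUSG00000029298) had the lowest fold change of the 10. It was at 14.8, 28.2, 24.9 and 33.6 FPKM in the 4 flow-through libraries and at 17.1, 19.1, 21.3 and 24.0 in the enriched libraries. Mice 2, 3 and 4 were lower in the enriched fraction and mouse 1 was higher. The log2 fold change was -0.26 (standard error 0.23, 95% interval -0.78 to 0.26, limma adjusted p = 0.422), and without flow-through replicate 1 it was -0.49 and passed (adjusted p = 0.0348).

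*Gbp8* (ENSMUSG00000034438) was at 11.9, 21.6, 19.6 and 23.3 FPKM in the 4 flow-through libraries and at 11.8, 16.1, 16.5 and 19.5 in the enriched libraries. It was the only one of the 10 that was lower in the enriched library of every mouse, as were 30.6% of all genes tested, although in mouse 1 the difference was -0.01 on the log2 scale. The log2 fold change was -0.23 (95% interval -0.72 to 0.27, limma adjusted p = 0.464). The value of *Gbp8* without flow-through replicate 1 was -0.43 (adjusted p = 0.0752).

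*Gbp4* (ENSMUSG00000079363), the GBP of highest mean in both fractions, although above *Gbp2* in 2 of 4 flow-through libraries, was at 19.3, 39.8, 40.4 and 46.4 FPKM in the 4 flow-through libraries and at 27.6, 31.9, 36.1 and 37.7 in the enriched libraries. *Gbp6* (ENSMUSG00000104713) was at 14.3, 27.6, 28.1 and 30.5 FPKM in the 4 flow-through libraries and at 22.3, 26.7, 27.1 and 28.9 in the enriched libraries. In both genes mice 2 to 4 were lower and mouse 1 higher in the enriched fraction, and neither passed, with log2 fold changes of -0.07 (95% interval -0.64 to 0.51, adjusted p = 0.86) and 0.11 (-0.39 to 0.61, adjusted p = 0.734). Without flow-through replicate 1 they were -0.34 and -0.13 and did not pass either.

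The IRG members are regulators that protect the cell's own membranes from the effector IRGs. *Irgm1* (ENSMUSG00000046879; chromosome 11, 48861968 to 48871683, minus strand) was at 43.4, 45.4, 44.7 and 45.2 FPKM in the 4 flow-through libraries and at 40.9, 42.5, 48.6 and 47.3 in the enriched libraries. This was the most level gene of the 10, higher in 2 of 4 mice, with a log2 fold change of 0.00 and a 95% interval from -0.17 to 0.17 (limma adjusted p = 0.995). Its flow-through libraries had an SD of 0.89 FPKM around a mean of 44.7, and replicate 1 differed from the mean of the others by -0.05 on the log2 scale, against -0.20 to -1.08 for the other 9 genes.

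*Igtp* (ENSMUSG00000078853; chromosome 11, 58199556 to 58207591, plus strand), which overlaps *Irgm2* on the same strand in the annotation, had the highest mean of the 10. It was at 42.6, 74.8, 68.4 and 76.6 FPKM in the 4 flow-through libraries and at 49.4, 58.3, 61.3 and 64.1 in the enriched libraries. Mice 2 to 4 were lower in the enriched fraction and mouse 1 was the reverse. The log2 fold change was -0.14 (standard error 0.19, 95% interval -0.56 to 0.28, limma adjusted p = 0.601), and without flow-through replicate 1 it was -0.33 and passed (adjusted p = 0.0414).

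In mean level per length, the order in the flow-through was *Igtp*, *Irgm1*, *Gbp4*, *Gbp2*, *Gbp9*, *Gbp6*, *Gbp8*, *Gbp7*, *Gbp3* and *Gbp5*, from 65.6 to 11.7 FPKM, and the ranges of all neighbours in that order overlapped. In the enriched fraction *Gbp6* and *Gbp7* stood before *Gbp9*, and *Gbp3* before *Gbp8*. There *Igtp* (58.3 FPKM) and *Irgm1* (44.8), *Irgm1* and *Gbp4* (33.3), and *Gbp2* (31.9) and *Gbp6* (26.3) did not overlap, and the other neighbours did.

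Most of the 10 genes moved with flow-through replicate 1, and *Irgm1* (0.00 with it, -0.01 without) and *Gbp7* (0.26 and 0.21) moved least. That library was the lowest flow-through library in 10 of 10 genes, as it was in 43.2% of all genes tested. Its median difference from the mean of the other flow-through libraries was -0.78 (log2) over the 10 genes, -0.81 over the T-cell genes and -0.05 over all genes tested. Within mice 2, 3 and 4, 7 of the 10 genes were lower in the enriched library (34.7% of all genes), and 6 of these 7 were higher in mouse 1 (4.15% of all genes showed that split). Without flow-through replicate 1, 0 of the 10 genes were higher and 3 lower (*Gbp2*, *Gbp9* and *Igtp*), with a median log2 fold change of -0.27. In that fit 14.2% of all genes were called higher and 12.9% lower. At an unadjusted p under 0.05, 2 of the 10 were higher and 5 lower, beside 2358 and 2556 of all 12195 genes. Without both libraries of mouse 1, *Gbp7* was higher (0.26, adjusted p = 0.0331) and *Gbp2* (-0.28, adjusted p = 0.0363) and *Igtp* (-0.26, adjusted p = 0.0458) were lower, with a median of -0.20, where 14.8% of all genes were called higher and 12.7% lower. The direction of *Gbp2*, *Gbp9* and *Igtp* was negative in each of these fits, and in the reported fit, with all 8 libraries, none of them was called.

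**Figure D2:**
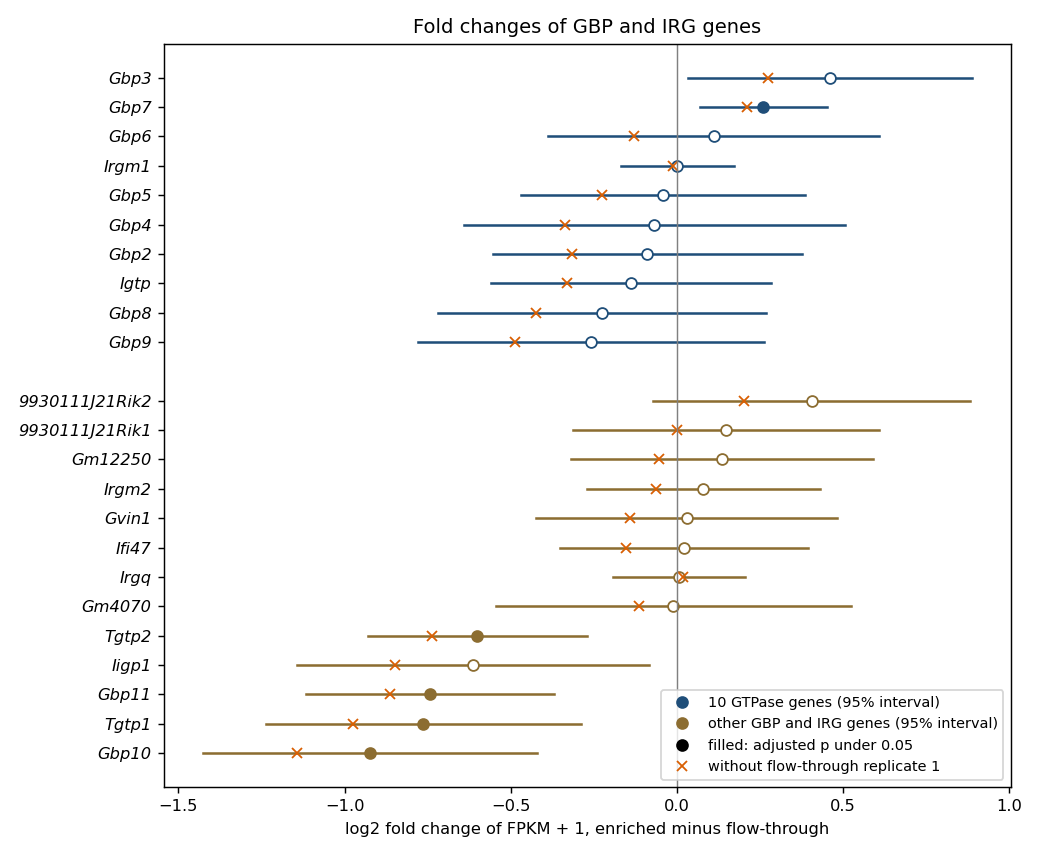
Log2 fold change of FPKM + 1 (x axis, enriched minus flow-through) of the 10 GTPase genes and of 13 other GBP and IRG genes, with bars for the 95% interval of 4 against 4 libraries, filled points for an adjusted p under 0.05, and crosses for the value without flow-through replicate 1. *Gbp7* is the only filled point above zero, and *Gbp10*, *Gbp11*, *Tgtp1* and *Tgtp2* are filled below zero.

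Since T-cell genes were low in the same library, each gene was also divided by the geometric mean of the 8 T-cell genes of its library. On that ratio 6 of the 10 genes were lower in the enriched fraction with no overlap (*Gbp2*, *Gbp4*, *Gbp5*, *Gbp8*, *Gbp9* and *Igtp*), where 33.8% of all genes tested were. *Igtp* was at 0.295, 0.281, 0.300 and 0.284 of the T-cell level in flow-through and at 0.164, 0.206, 0.214 and 0.225 in the enriched libraries. *Gbp8* was at 0.0825, 0.0812, 0.0861 and 0.0864 against 0.0392, 0.0569, 0.0575 and 0.0684. In both genes flow-through replicate 1, which was far below the other flow-through libraries in FPKM, fell within their range on this ratio, whereas *Irgm1* (0.301 against 0.168 to 0.196) and *Gbp7* (0.118 against 0.0726 to 0.0859) then stood above them. In the limma fit with T-cell scaling 0 of the 10 genes were higher and 2 lower, *Gbp9* (-0.63, adjusted p = 0.0348) and *Igtp* (-0.52, adjusted p = 0.048). At an unadjusted p under 0.05, 0 of the 10 were higher and 6 lower, where 830 and 4011 of all 12166 genes were. That scaling moved the median of all genes to -0.37 and the split of calls from 1720 higher and 1664 lower to 521 higher and 1454 lower (4.28% and 12.0%), so the median of -0.42 of the 10 genes lay close to that of all genes. With pairing by mouse added to this scaling, 0 of the 10 were called in either direction, where 602 and 2688 of all 12166 genes were called higher and lower. At an unadjusted p under 0.05, 0 of the 10 were higher and 3 lower, where 820 and 4281 of all genes were.

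**Figure D3:**
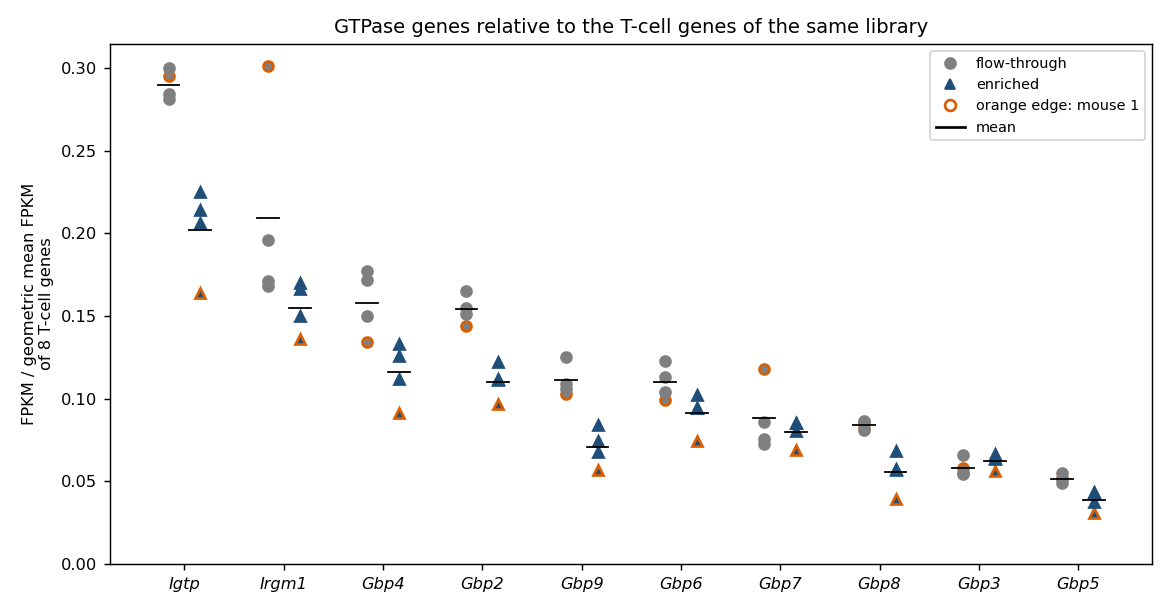
FPKM of each of the 10 GTPase genes divided by the geometric mean FPKM of 8 T-cell genes of the same library (y axis, from 0), for flow-through (circles) and enriched libraries (triangles), with bars for the mean and an orange edge for mouse 1. In *Igtp* every enriched library (0.164 to 0.225) lies below every flow-through library (0.281 to 0.300), and in *Gbp3* (0.0561 to 0.0663 against 0.0541 to 0.0657) the fractions overlap.

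Other GBP and IRG genes of the table were examined in the same way. There were 18, of which 13 passed the level filter, and 0 of the 13 were higher and 4 lower in the enriched fraction (0 and 5 at an unadjusted p under 0.05), with a median log2 fold change of 0.01. Without flow-through replicate 1 the counts were 0 and 5 (the same at an unadjusted p under 0.05) and the median was -0.14, and with T-cell scaling they were 0 and 5 (0 and 6) and -0.35. Over all genes, 14.1% were higher and 13.7% lower in the reported fit (2433 and 2594 of 12166 at an unadjusted p under 0.05). These shares were 14.2% and 12.9% without flow-through replicate 1, and 4.28% and 12.0% with T-cell scaling. When each library was left out, 0 were higher and 1 to 5 lower, where 939 to 1780 of all genes were lower. The 1 was reached without flow-through replicate 3. At a mean of at least 5 FPKM, 0 were higher and 2 lower, where 1338 and 1374 of all genes were. The 4 lower genes of the reported fit were a GBP gene of chromosome 5, its annotated pseudogene neighbour and a pair of near-identical effector IRGs. *Gbp10* was at 2.36, 5.08, 4.98 and 5.45 FPKM in the 4 flow-through libraries and at 1.32, 1.68, 2.07 and 2.19 in the enriched libraries. The fractions did not overlap, and the log2 fold change was -0.92 (standard error 0.22, limma adjusted p = 0.0172), or 0.0526 without flow-through replicate 3. *Gbp11*, a polymorphic pseudogene by annotation, was at 1.03, 1.88, 1.59 and 2.09 against 0.360, 0.679, 0.571 and 0.659 FPKM (-0.74, SE 0.16, adjusted p = 0.0122). Its enriched libraries were all below 1 FPKM, so it passed the level filter only through the flow-through libraries. It fell below the filter and was not tested without flow-through replicate 2 or 4, or at a mean of at least 5 FPKM. Its call was kept in the settings in which it was tested. Because *Gbp10* shares sequence with *Gbp6* and with the read-through gene, its low value is uncertain for the same reason as that of *Gbp6*.

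*Tgtp1* and *Tgtp2* encode Irgb6, an effector IRG that loads onto parasite vacuoles. *Tgtp2* was at 31.3, 50.0, 44.9 and 44.3 FPKM in the 4 flow-through libraries and at 26.2, 25.3, 26.6 and 31.8 in the enriched libraries (-0.60, SE 0.15, limma adjusted p = 0.0177). *Tgtp1* was at 12.0, 25.4, 19.5 and 22.7 against 10.4, 9.90, 10.8 and 12.7 FPKM (-0.76, SE 0.21, adjusted p = 0.0273). Both were lower in all 4 mice, and the fractions touched only through flow-through replicate 1. The *Tgtp2* call was lost without flow-through replicate 3 or enriched replicate 2 (adjusted p = 0.0531 and 0.0533) and that of *Tgtp1* without any of 6 libraries (0.0512 to 0.0744).

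*Iigp1*, which encodes the effector Irga6, was at 4.44, 10.2, 9.10 and 9.13 FPKM against 3.66, 4.86, 5.13 and 5.80. It was lower in all 4 mice and did not pass (-0.61, SE 0.23, limma adjusted p = 0.0807), but did so in the paired fit (adjusted p = 0.00849) and without flow-through replicate 1 (-0.85, adjusted p = 0.00388). The regulator *Irgm2* (0.08, adjusted p = 0.727) and the effectors *Ifi47* (0.02, 0.936) and *Gm12250*, the gene of Irgb10 (0.14, 0.636), had values near zero. So did *Irgq* (0.01, 0.97), *Gvin1* (0.03, 0.927), *Gm4070* (-0.01, 0.977) and *9930111J21Rik1* (0.15, 0.609). *9930111J21Rik2* was higher in all 4 mice without passing (0.41, adjusted p = 0.178), and it passed in the paired fit (0.0189).

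The pathway above the GTPases was examined from ligand to target. The ligand *Ifng* was at 6.03, 12.3, 7.12 and 9.96 FPKM in the 4 flow-through libraries and at 21.4, 22.8, 20.5 and 30.1 in the enriched libraries, so the fractions were well apart. Its log2 fold change was 1.35 (standard error 0.21, 95% interval 0.88 to 1.83, limma adjusted p = 0.00347), a ratio of means of 2.67, and the call was kept in every alternative. NK-cell and γδ T-cell markers were higher in the same libraries, by the summed levels given above, and their part in the *Ifng* value was not tested. The receptor chains did not pass: *Ifngr1* was at 112.9 ± 13.8 and 124.6 ± 23.5 FPKM (0.13, adjusted p = 0.547) and *Ifngr2* at 8.25 ± 1.66 and 6.46 ± 2.49 FPKM (-0.35, adjusted p = 0.298; 0.0489 in the paired fit).

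Of the receptor's kinases, *Jak2* was at 25.4, 29.8, 27.7 and 29.8 FPKM against 33.0, 35.1, 36.5 and 36.2, a log2 fold change of 0.31 (standard error 0.08, limma adjusted p = 0.0188) with no overlap. Without enriched replicate 2, 3 or 4 or flow-through replicate 3 its adjusted p was 0.0521 to 0.0588, and with T-cell scaling its difference was -0.07. *Jak1* was level (134.2 ± 21.3 and 133.0 ± 6.09 FPKM, 0.00, adjusted p = 0.997). The transcription factor gene *Irf1* was at 88.3 ± 20.7 and 87.9 ± 7.48 FPKM (0.02, adjusted p = 0.932), and the feedback inhibitor *Socs1* was at 17.2 ± 6.94 and 21.7 ± 3.47 FPKM (0.40, adjusted p = 0.322).

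Of 18 interferon-γ signaling genes tested, 3 were higher (*Ifng*, *Jak2* and *Ciita*) and 0 lower, with a median of 0.09. Of all genes, 14.1% were higher and 13.7% lower. At an unadjusted p under 0.05 the counts were 5 and 0, beside 2433 and 2594 of all 12166 genes. In the paired fit 5 were higher and 2 lower, beside 22.2% and 22.7% of all genes. Without flow-through replicate 1 the counts were 3 and 2, beside 14.2% and 12.9% of all genes, and the median was -0.03. With T-cell scaling they were 2 and 3, beside 4.28% and 12.0% of all genes. There 15 of the 18 were below zero, with a median of -0.28, beside the shift of all genes to -0.37. *Ciita*, the master regulator of MHC class II genes, was at 0.607, 1.48, 1.62 and 1.67 FPKM against 2.78, 7.35, 6.75 and 8.60 (1.60, SE 0.30, limma adjusted p = 0.00704). Dendritic-cell and myeloid markers were higher in the same libraries, by the summed levels given above, and their part in the *Ciita* value was not tested.

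Of 19 other interferon-γ targets 4 were higher and 0 lower, with a median of 0.23, where 14.1% of all genes were higher and 13.7% lower. At an unadjusted p under 0.05 the counts were 8 and 0, beside 2433 and 2594 of all 12166 genes. In the paired fit they were 8 and 0, beside 22.2% and 22.7% of all genes. Leaving out flow-through replicate 1 gave counts of 5 and 0 (7 and 0 unadjusted) and a median of 0.11, and with T-cell scaling 2 and 0 (5 and 1 unadjusted) and -0.16. All genes were at 14.2% and 12.9%, and at 4.28% and 12.0%, in these fits. At a mean of at least 5 FPKM the counts were 2 and 0, where 1338 and 1374 of all genes were. *Upp1*, a uridine phosphorylase, was at 0.470 ± 0.188 FPKM in the 4 flow-through libraries and at 5.46 ± 2.86 in the enriched libraries (2.03, SE 0.30, limma adjusted p = 0.0028). The chemokine gene *Cxcl9* was at 0.370 ± 0.259 and 2.44 ± 1.37 FPKM (1.24, SE 0.33, adjusted p = 0.0238), with enriched replicate 1 below flow-through replicate 2. Flow-through means of *Upp1* and *Cxcl9* were below 1 FPKM, so both passed the level filter only through the enriched libraries. They are part of the count of 4. The other 2, named after their values were seen, were *Cxcl10* (0.90, adjusted p = 0.0218) and the immunoproteasome gene *Psmb8* (0.46, adjusted p = 0.0427). The myeloid and dendritic-cell marker values above move with these genes as well, and their part was not tested. The calls of *Cxcl9*, *Cxcl10* and *Psmb8* were each lost without enriched replicate 2, 3 or 4 (adjusted p = 0.0589 to 0.101), and those of *Cxcl9* (0.059) and *Psmb8* (0.0872) also without flow-through replicate 3. *Psmb8* was lost without enriched replicate 1 as well (0.0788), and with T-cell scaling its difference was 0.07.

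Of 18 type I interferon-stimulated genes tested, 3 were higher and 1 lower, with a median of 0.14, where 14.1% of all genes were higher and 13.7% lower. When flow-through replicate 1 was left out the counts were 3 and 2 and the median was 0.00, and with T-cell scaling 2 and 2 and -0.23. Of all genes, 14.2% were higher and 12.9% lower without that library, and 4.28% and 12.0% with T-cell scaling. That scaling moved the median of all genes to -0.37. In the paired fit 4 were higher and 1 lower, beside 22.2% and 22.7% of all genes. *Mx1*, an antiviral dynamin-like GTPase, was at 9.55 ± 3.00 and 18.9 ± 3.23 FPKM (0.96, SE 0.24, limma adjusted p = 0.0187), and *Oas3*, an oligoadenylate synthetase, at 18.2 ± 3.60 and 35.2 ± 0.905 FPKM (0.93, SE 0.14, adjusted p = 0.00296). *Isg15*, named after its value was seen, was the third (0.48, adjusted p = 0.0221). *Oasl1*, a restraint on interferon production, was lower in all 4 mice (10.1 ± 2.46 and 4.14 ± 0.815 FPKM, -1.10, SE 0.18, adjusted p = 0.00412). The *Mx1* call was lost without enriched replicate 2 or 4 (adjusted p = 0.0503 and 0.056) and that of *Isg15* without enriched replicate 2, 3 or 4 (0.057 to 0.0655). With T-cell scaling the difference of *Isg15* was 0.10.

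Autophagy and inflammasome genes, whose proteins work with GBPs and IRGs at vacuoles, included 8 higher and 1 lower of 20 tested, with a median of 0.30. Of all genes, 14.1% were higher and 13.7% lower. Without flow-through replicate 1 the counts were 7 and 1, beside 14.2% and 12.9% of all genes, with a median of 0.17. In the paired fit 10 were higher and 2 lower, beside 22.2% and 22.7% of all genes. *Casp1*, the inflammasome caspase, was at 10.5, 25.2, 19.1 and 20.0 FPKM in the 4 flow-through libraries and at 40.5, 42.4, 44.8 and 44.8 in the enriched libraries (1.22, SE 0.22, limma adjusted p = 0.0061), so the fractions were well apart. *Il18*, whose product caspase-1 activates, was at 0.365, 1.37, 1.55 and 0.103 FPKM against 2.13, 2.96, 2.28 and 3.81 (1.11, SE 0.29, adjusted p = 0.0244). Its flow-through libraries averaged under 1 FPKM, so it passed the level filter only through the enriched libraries. It is part of the count of 8 higher genes, which was 6 at a mean of at least 5 FPKM. There 1338 of all genes were higher. Myeloid and dendritic-cell markers were higher in the same libraries, by the summed levels given above. Their part in the *Casp1* and *Il18* values was not tested. *Gabarapl1*, an ATG8-family gene, was at 26.6 ± 9.06 and 15.2 ± 1.86 FPKM (-0.72, SE 0.20, adjusted p = 0.0308). Calls of *Il18* and *Gabarapl1* were lost without enriched replicate 2 or 4, with adjusted p of 0.0659 to 0.0843. The *Gabarapl1* call was also lost without enriched replicate 3 (0.0603) or flow-through replicate 3 (0.0741). With T-cell scaling 3 genes of the list were higher and 0 lower (6 and 4 at an unadjusted p under 0.05), with a median of -0.08. Of all genes, 4.28% were then higher and 12.0% lower, or 830 and 4011 of 12166 at the unadjusted threshold.

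Other dynamin-superfamily GTPases, distant relatives of the GBPs, included 0 higher and 1 lower of 7 tested (0 and 1 at an unadjusted p under 0.05), with a median of -0.09, and 0 and 0 (0 and 1 unadjusted) with a median of -0.02 without flow-through replicate 1. Of all genes, 14.1% were higher and 13.7% lower, so 1 of 7 was close to the share of genes at large. Without flow-through replicate 1 these shares were 14.2% and 12.9%. The lower gene was *Opa1*, a mitochondrial fusion GTPase, at 23.3 ± 4.60 and 16.7 ± 1.48 FPKM (-0.44, SE 0.14, limma adjusted p = 0.0436), and its call was lost without any of 6 libraries (adjusted p = 0.0653 to 0.116).

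**Figure D4:**
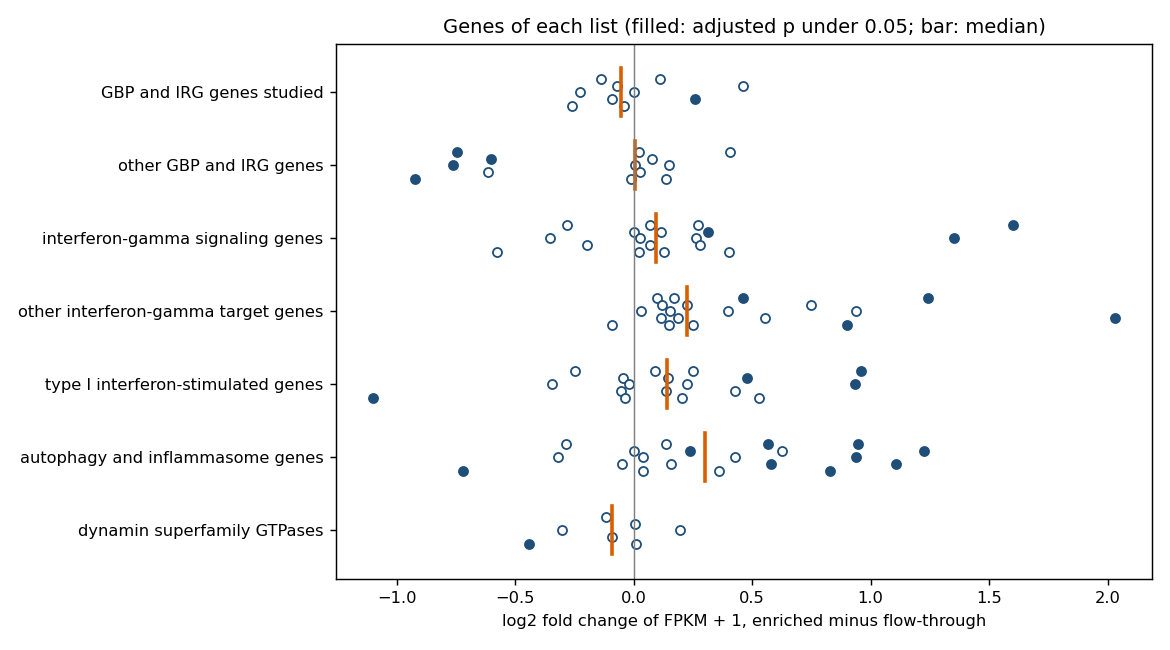
Log2 fold change of FPKM + 1 (x axis, enriched minus flow-through) of every tested gene of each list, with filled points for an adjusted p under 0.05 and an orange bar for the median of the list. The 10 GTPase genes lie between -0.26 and 0.46, whereas *Ifng* (1.35) and *Ciita* (1.60) stand to the right in the signaling list.

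The pattern of the 10 genes over the 8 libraries, as the mean of their centred log2 values, was -0.54, 0.21, 0.08 and 0.25 in flow-through replicates 1 to 4 and -0.20, 0.00, 0.06 and 0.14 in the enriched replicates. *Igtp* (root-mean-square distance 0.07), *Gbp5* and *Gbp2* (both 0.08) lay nearest to it, and *Gbp3* (0.26), *Gbp7* and *Irgm1* (both 0.21) farthest. Outside the family the nearest of 9310 genes whose mean reached 5 FPKM were *Slc44a2* (0.0481), *Shisa5* (0.051), *Tecpr1* (0.0521), *D8Ertd82e* (0.0538) and *Mylip* (0.0544), where the median gene lay at 0.321. These lay nearer than any of the 10 genes, and 2642 of the 9310 lay as near as *Gbp3*, so the pattern was not particular to the family. *Slc44a2* was at 68.4, 112.1, 96.5 and 118.6 FPKM in the 4 flow-through libraries and at 87.6, 100.8, 97.5 and 108.8 in the enriched libraries, with the same low first library. The points share libraries and scaling.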

How the data were processed

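RNA sequencing values of 8 libraries were used, 4 IL-18Rα hi-enriched and 4 flow-through. Per the labels, stranded TruSeq libraries of poly(A) RNA were read as 150-base paired ends. The authors mapped reads with TopHat to mm10 and deposited FPKM from Cufflinks 2.1.1, per the submitters' processing notes, with correction for multiply mapped reads and fragment bias and other options at their defaults; the annotation release is not given in the sources used here. FPKM carry no exact depth, so count models and counting intervals were not used, and depth was estimated from the smallest values of long single-transcript genes.

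From there, limma 3.58.1 (R 4.3.3) was run on log2(FPKM + 1) with a variance trend over the 12166 genes that averaged 1 FPKM or more, without a block, 4 libraries against 4, and Benjamini-Hochberg adjusted p-values were called at 0.05. Fold changes on this scale understate changes of low genes. The procedure was tested on simulated data with independent libraries, without a mouse effect or a deviating library. That test does not bear on these features of the data. Alternatives were a pseudocount of 0.1, no filter, a mean of at least 5 FPKM, no trend, 3 scalings, the mouse as a replicate block and leaving out each library; leaving out mouse 1 and combining block and T-cell scaling were added after the data were seen. The labels give both fractions from each of 4 mice, and deviations of same-mouse libraries correlated at 0.308 to 0.66. Those of different mice correlated at -0.6 to 0.412, so the ranges overlap. Each library correlated most with the library of its own number, and the samples were paired by number. Mice are the replicates. The p-values of the reported fit describe the spread of libraries within each fraction and do not use the pairing. Those of the paired fit describe the spread of the differences within mice.

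The 10 genes and all lists were chosen with earlier results of these data known. Named genes were the 10, 8 signaling genes, every other GBP or IRG gene at a mean of 1 FPKM, from each further list the 2 called genes of largest fold change in each direction, and the 5 genes of most similar pattern. A gene that this rule names is not reported here, and counts and list medians include it. Coordinates are from GENCODE M21 (mm10), in which 98.9% of identifiers were found, 95.4% of them with the same name. Proteins were not compared here, and coding sequences were aligned globally with Biopython 1.88 instead; 150-base windows of each transcript were searched in the transcripts of all other genes.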

Additional observations from a re-analysis of the deposited data

Results flagged for a closer look

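In 3 of 62 groups of 4 libraries examined, 1 library lay farther from the others than Dixon's criterion allows, where chance would give 3.1. *Gbp7* was at 17.1 FPKM in flow-through replicate 1, against 19.6 to 20.1 in the other flow-through libraries. *Gbp10* was at 2.36 FPKM in the same library, against 4.98 to 5.45. *9930111J21Rik2* was at 12.8 FPKM in enriched replicate 1, against 17.3 to 18.2 in the other enriched libraries. The low T-cell genes and high erythroid markers of flow-through replicate 1 are values beside those of *Gbp7* and *Gbp10*, and their part was not tested.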

How the results depend on the processing

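The count of the 10 genes called higher, 1 in the reported fit, was 0 without a level filter, without a variance trend, with T-cell scaling and with the replicate block and T-cell scaling together, and 2 with the replicate block. It ranged from 0 to 1 when each library was left out. The count called lower, 0 as reported, was 2 with T-cell scaling and 2 without mouse 1, and 0 to 3 when each library was left out, with 3 reached without flow-through replicate 1. Of all genes, 12.0% were called lower with T-cell scaling, 12.7% without mouse 1 and 12.9% without flow-through replicate 1. The median log2 fold change of the 10 genes moved from -0.06 to -0.42 with T-cell scaling, alone or with the replicate block, and lay between -0.27 and 0.03 when each library was left out. *Gbp7* reversed to -0.11 with T-cell scaling, alone or with the block, which sets each library to its T-cell genes. Over all genes, 1720 higher calls became 521 with T-cell scaling, 2705 with the replicate block and 602 with both, and 1107 to 1813 when each library was left out. The 1664 lower calls became 1454 with T-cell scaling, 2763 with the replicate block and 2688 with both, and 939 to 1780 when each library was left out. Among the exclusions of 1 library, those of enriched replicate 2 (1115 higher, 958 lower), enriched replicate 4 (1107 and 971) and flow-through replicate 3 (939 lower) moved these counts by over 1.5 times. A pseudocount of 0.1, quantile and median ratio scaling kept both counts of the 10 genes. The paired fit changed no other call among the 10 genes than that of *Gbp3*. The cause of these shifts was not tested. Library depth is only an estimate, so the precision of low values such as *Gbp11* rests on 4 mice per fraction.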

Other observations

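Genes within 100 kb of the 10 GTPase genes were listed from the annotation. The 10 themselves and the other GBP and IRG genes examined above were left out of that list. Of the rest, 27 had a deposited value, and 14 of these passed the level filter. By limma 1 was higher in the enriched fraction, *Pdlim5* (0.26, adjusted p = 0.0384), and 5 were lower, where 14.1% of all genes were higher and 13.7% lower. The 5 lower genes were *Gnb2l1* (-0.44, adjusted p = 0.00392), *Gm12185* (-0.77, 0.0337), *Gemin5* (-0.76, 0.0188), *Zfp692* (-0.64, 0.00242) and *Ccbl2* (-0.59, 0.0286). The pseudogene *Gm43802*, which shares windows with *Gbp7*, was at 0.58 (adjusted p = 0.274).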
